A study of Mus musculus with 12 samples.

Results

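Dll4 and 9 other genes of the Notch pathway were examined by RNA-Seq in the lungs of 12 mice that lack miR-30a (miR-30a-/-). The genes were chosen by symbol, and all 10 were found among the 55487 genes of the count table and among the 45828 genes that had enough reads to be tested. They are the ligands Dll4, Dll1, Jag1 and Jag2, the receptors Notch1 and Notch4, the target genes Hey1, Hes1 and Nrarp, and Rbpj, the DNA-binding partner of the cleaved receptors. The mice were C57BL/6J, and every mouse carried a deletion of the whole miR-30a gene in all tissues, made by CRISPR/Cas9. Pups were exposed to hyperoxia (95% oxygen) or kept in room air from postnatal day (PND) 1 to PND 5, and lungs were taken on PND 21 after recovery in room air. There were 4 groups of 3 lungs: hyperoxia-exposed females, room air females, hyperoxia-exposed males and room air males. Pups of several litters had been pooled before they were divided between exposures. Wild-type lungs were not analysed here, so the values below describe the response to hyperoxia within the knockout and not the effect of losing miR-30a.

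Notch receptors are activated by ligands on a neighbouring cell. The receptor is then cleaved, and its inner part enters the nucleus, joins Rbpj and turns on genes of the Hes and Hey families. In growing vessels, Dll4 on the leading tip cell activates Notch1 on the cells behind it and limits the number of sprouts. MicroRNAs lower the level of transcripts that carry matches to their seed, bases 2 to 8 of the mature microRNA, and Dll4 is the target of miR-30a that the study names in its introduction.

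The mature sequences below are shown because the deleted miR-30a shares its seed with other genes that were not deleted. They are from RefSeq on GRCm38.p6, with the seed in capitals, and miR-30c-5p has a second gene, Mir30c-1. They do not cover the whole family, which also includes miR-30b and miR-30d. Mir30a itself had 0 counts in all 12 lungs, and since a mature microRNA is too short for these libraries, this is no check of the deletion.
miR-30a-5p (Mir30a, chr1:23272274-23272295, plus strand): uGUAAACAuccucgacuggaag
miR-30c-5p (Mir30c-2, chr1:23291714-23291736, plus strand): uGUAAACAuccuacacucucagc
miR-30e-5p (Mir30e, chr4:120772660-120772681, minus strand): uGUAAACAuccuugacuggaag

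Among the 10 genes, the 3′ UTRs of Dll4, Jag2 and Rbpj each held 1 match to this seed, TGTTTAC on the transcript strand, and in all 3 the base after the match was A. The other 7 genes had none in the transcript that was searched. Of all 21067 protein-coding genes with a 3′ UTR, 13.7% held a match. Among the 2542 genes whose 3′ UTR was within 1.2-fold of the 1329 bases of Dll4, the share was 12.8%. A match describes the letters only. The 3 sites are given on the transcript strand (GRCm38, the build of the mm10 counts), with the seed match in capitals.
Dll4 (chr2:119334682-119334708, plus strand): ccttctgcatTGTTTACattgcatcct
Jag2 (chr12:112908539-112908565, minus strand): aggccgtcgcTGTTTACagaatcttct
Rbpj (chr5:53656279-53656305, plus strand): ttttctattcTGTTTACagtgcgtcta

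Counts on genes summed to between 8763033 and 16741694 for each lung, so that 3 counts, the smallest level taken as detectable, corresponded to 0.191 to 0.327 CPM (counts scaled to the library total). Olfactory and vomeronasal receptor genes, which are known mainly from sensory neurons of the nose, took 0.410 to 0.945% of the counts. Their read density per kilobase of exon was used in each lung to estimate background reads. The genes Gm10800, Gm10801 and Gm21738 took a further 7.12 to 28.5% of the counts. No replicates of a group agreed within sampling noise (chi-square per degree of freedom of 2.47 to 53.7). The lungs expressed endothelial markers (18 genes summing to 3083 to 6639 CPM) and airway epithelial markers (6 genes, 4351 to 12458 CPM). Room air male 1 stood apart in skeletal muscle markers, whose sum was 1767 CPM against 107.5 to 177 CPM in the other lungs. Cardiac muscle markers summed to 182 to 207 CPM in room air females and to 100.2 to 133 CPM in hyperoxia-exposed females, and 5 of the 6 were lower in that comparison at an unadjusted p under 0.05 (edgeR, 0 called), against 5.28% of all tested genes.

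Per kilobase of exon and after subtraction of background, Notch1 was the most abundant of the 10 genes at 19.5 ± 3.1 CPM per kb (SD, n = 12 lungs). It was followed by Notch4 (17.8 ± 2.5), Hey1 (16.6 ± 2.8), Hes1 (16.3 ± 1.9) and Dll4 (15.9 ± 2.8). These 5 genes were not clearly ordered: each stood above the next in only 10, 8, 7 and 8 of 12 lungs. Dll4 stood above Jag1 (9.1 ± 1.1) in 12 of 12 lungs, by a median of 1.78-fold, so that Dll4 was the most abundant of the 4 ligands per length. Jag1 was above Jag2 (6.94 ± 0.46) in 12 lungs, and Jag2 was above Dll1 (6.7 ± 1.2) in 9. Rbpj followed at 4.69 ± 0.73. Its length of 12750 bases joins the exons of all its annotated transcripts, and its place in this order depends on that length. Nrarp, which encodes a feedback inhibitor of Notch signalling, was by far the lowest at 0.55 ± 0.62 CPM per kb. Background made up 68.9% of the reads of Nrarp, 22.1% of those of Rbpj and 6.3 to 16.7% of those of the other 8 genes. An antisense gene covers 2051 of the 2582 exon bases of Nrarp, and genes on the opposite strand overlap 214 of 3852 exon bases of Dll4, 867 of 4219 of Dll1 and 1482 of 14232 of Notch1. The strand setting of the counting is not given in the sources used here, so reads of these partners may be included.

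Dll4 (ENSMUSG00000027314, chr2:119325784-119335962, plus strand) did not differ by exposure beyond the spread between lungs. It stood at 81.8, 73.5 and 50.6 CPM in room air females and at 63.7, 53.6 and 57.5 CPM in hyperoxia-exposed females. In males it stood at 37.3, 63.0 and 50.7 CPM in room air and at 70.3, 39.7 and 50.4 CPM after hyperoxia. The groups overlapped in both sexes, and the highest and lowest lung were both from room air. Over all lungs the log2 fold change of hyperoxia against room air was -0.07 (SE 0.15, 95% interval -0.39 to 0.24, edgeR quasi-likelihood test, adjusted p = 0.961). The interval allows a Dll4 level after hyperoxia of 0.763 to 1.18 times that in room air. The log2 fold change was -0.24 (SE 0.22, adjusted p = 0.592) in females and 0.09 (SE 0.22, adjusted p = 1.00) in males.

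The sign of the small Dll4 difference over all lungs was not stable. It was 0.03 without room air male 4, 0.003 without room air female 2 and 0.01 without hyperoxia-exposed male 2. In males it was -0.08 without room air male 1, the lung with the skeletal muscle transcripts, and -0.15 without hyperoxia-exposed male 1.

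**Figure D1:**
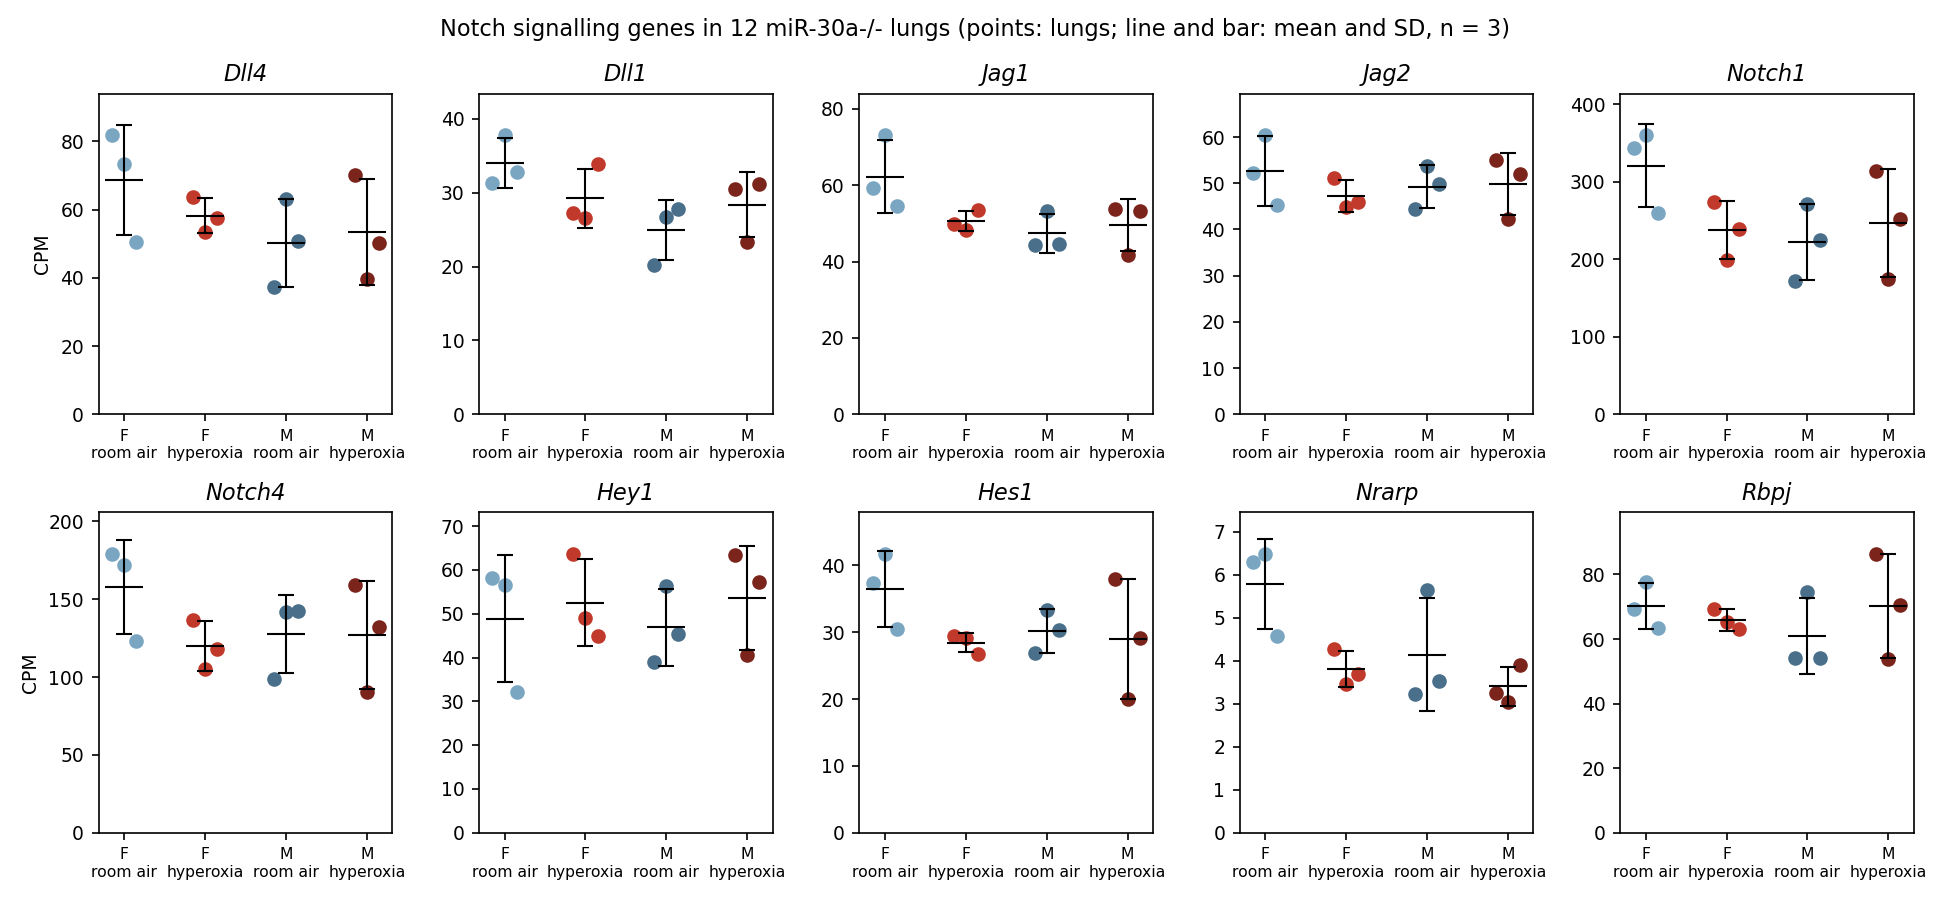
Level of the 10 genes in CPM (vertical axes, starting at 0 and scaled to each gene) in the 3 lungs of each group (points), with the group mean and SD. In females, all 3 hyperoxia-exposed lungs lie below all 3 room air lungs for Jag1, Hes1 and Nrarp, and groups overlap in every other panel and in males.

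Of the other ligands, none was called. Jag1, a ligand of smooth muscle and endothelium, stood at 54.6 to 73.1 CPM in room air females and at 48.3 to 53.5 CPM in hyperoxia-exposed females, so that these groups did not overlap. Its log2 fold change in females was -0.30 (SE 0.17, edgeR adjusted p = 0.433), and in males, where the groups overlapped, it was 0.07 (SE 0.17). Jag2 ranged from 42.2 to 60.4 CPM over the 12 lungs, with a log2 fold change over all lungs of -0.07 (SE 0.12). Dll1, the lowest ligand, ranged from 20.3 to 37.8 CPM, with a log2 fold change of -0.01 (SE 0.11) over all lungs.

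Notch1, the receptor of Dll4 in sprouting vessels, stood at 344, 360 and 260 CPM in room air females and at 275, 199 and 240 CPM in hyperoxia-exposed females. In males it stood at 172, 271 and 225 CPM in room air and at 314, 175 and 253 CPM after hyperoxia. The groups overlapped in both sexes, in females by 1 lung of each group. The log2 fold change was -0.43 (SE 0.27, edgeR adjusted p = 0.451) in females and 0.15 (SE 0.27) in males. Notch4, a receptor largely restricted to endothelium, stood at 179, 172 and 123 CPM in room air females and at 137, 105 and 118 CPM in hyperoxia-exposed females. In males it stood at 98.8, 142 and 143 CPM in room air and at 159, 90.2 and 132 CPM after hyperoxia. Its log2 fold change was -0.40 (SE 0.24, adjusted p = 0.444) in females and 0.00 (SE 0.24) in males.

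None of the 3 target genes passed the test. Hey1, a transcriptional repressor induced by Notch in arteries, stood at 58.2, 56.5 and 32.1 CPM in room air females and at 63.7, 48.9 and 44.9 CPM in hyperoxia-exposed females. In males it stood at 38.9, 56.3 and 45.4 CPM in room air and at 63.4, 40.5 and 57.2 CPM after hyperoxia. These groups overlapped, and the log2 fold change over all lungs was 0.15 (SE 0.15, edgeR adjusted p = 0.931). Hes1, a second repressor induced by Notch, stood at 37.4, 41.7 and 30.4 CPM in room air females and at 29.4, 29.2 and 26.8 CPM in hyperoxia-exposed females. The female groups did not overlap, and the log2 fold change was -0.36 (SE 0.18, adjusted p = 0.399) in females and -0.05 (SE 0.18) in males.

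Nrarp rested on 28 to 102 counts per lung. It stood at 6.3, 6.5 and 4.6 CPM in room air females and at 4.3, 3.5 and 3.7 CPM in hyperoxia-exposed females, which did not overlap. In males it stood at 3.2, 5.7 and 3.5 CPM in room air and at 3.2, 3.0 and 3.9 CPM after hyperoxia. Its log2 fold change was the largest of the 10 genes, at -0.44 (SE 0.18, unadjusted p = 0.023, edgeR adjusted p = 0.927) over all lungs and -0.60 (SE 0.25, adjusted p = 0.364) in females. Rbpj ranged from 53.9 to 86.4 CPM over the 12 lungs, with a log2 fold change of 0.06 (SE 0.14, adjusted p = 0.966) over all lungs.

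Counted together, 0 of 10 genes were called, which took an adjusted p under 0.05 with a change of over 1.5-fold, in any comparison by edgeR, and 0 by DESeq2. Over all lungs, 0.0415% of all tested genes were called by the same rule, and in females and males 0.00218% and 0%. By DESeq2 these shares were 0.0873%, 0.194% and 0%. At an unadjusted p under 0.05, 1 of 10 genes (Nrarp) was lower over all lungs, where 2.52% of tested genes were. Of the 7151 genes with a mean of at least 10 CPM and background under 20% of their reads, called well-counted here, 9.43% were. In females 1 of 10 (Nrarp) was lower, against 5.28% of tested and 24.3% of well-counted genes, and in males 0 of 10 passed in either direction, against 2.7%. The median log2 fold change of the 10 genes was -0.10 over all lungs, -0.27 in females and 0.08 in males. For the well-counted genes it was -0.12, -0.31 and 0.06. In females 9 of the 10 genes had a negative log2 fold change, as had 95.4% of the well-counted genes. In females 3 of the 10 genes did not overlap, all lower after hyperoxia, as for 22.1% of the well-counted genes and 6.42% of all tested genes. The counts of the Notch genes were thus read against the shares of the well-counted genes, to which they were near.

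The olfactory and vomeronasal receptor share moved with these levels. In females it was 0.766 ± 0.090% of counts after hyperoxia and 0.56 ± 0.17% without it (SD, n = 3 each, exact two-sided permutation p = 0.2, where the smallest p possible is 0.1). In males it was 0.73 ± 0.22% after hyperoxia and 0.77 ± 0.13% in room air (exact permutation p = 0.9). Once background was subtracted, the median log2 fold change of the 10 genes stood at -0.12 (females) and 0.03 (males), and with the log2 share as a covariate at 0.01 (females) and -0.01 (males). The part of this share in the difference of each gene was not tested beyond these fits.

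**Figure D2:**
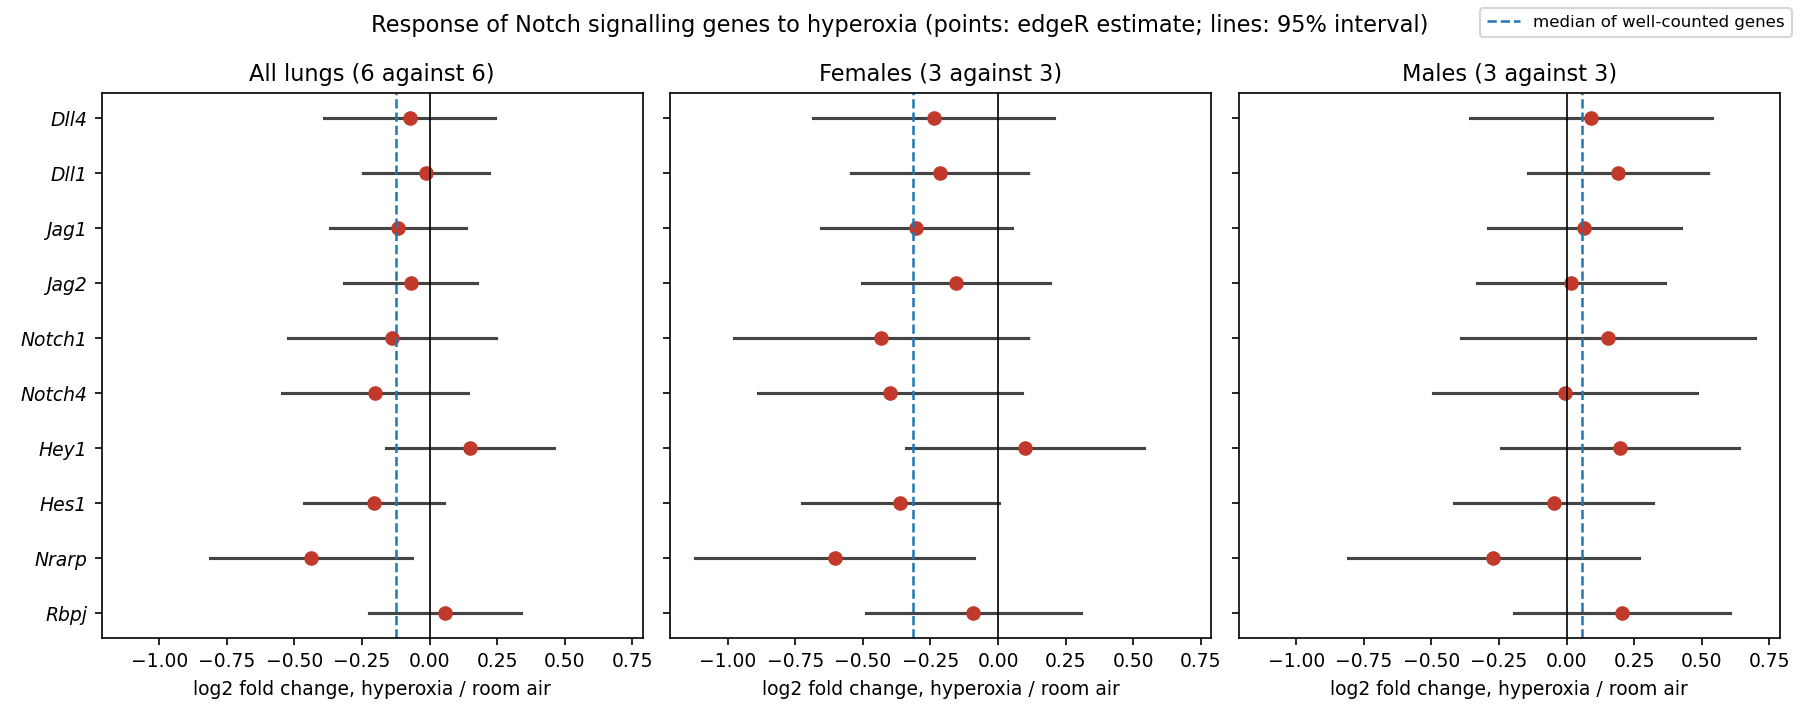
Log2 fold change of hyperoxia against room air (horizontal axis, the same in each panel) for the 10 genes over all lungs, in females and in males, with 95% intervals from edgeR. The dashed line is the median of the 7151 well-counted genes (-0.12, -0.31 and 0.06), and every interval except those of Nrarp over all lungs and in females includes 0.

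2 genes lay far from that median. Hey1 was above it by 0.27 on the log2 scale over all lungs and by 0.41 in females, higher than 98.6% and 98.0% of the well-counted genes. Nrarp was below it by 0.32 over all lungs, a place that only 2.29% of the well-counted genes took or passed, with most of its reads at the level of background. Nrarp and Rbpj are themselves not among the well-counted genes. Rbpj was above 94.2% of the well-counted genes, Dll4 above 68.5% and Notch1 above 43.0%. With the receptor share as a covariate, Hey1 was called in females, with a log2 fold change of 0.59 (SE 0.12, edgeR adjusted p = 0.016), where 0.048% of all tested genes were called. In the same model over all lungs it was 0.34 (SE 0.07, adjusted p = 0.011), below the fold threshold, while 0.334% of all tested genes passed that p. The direction of Hey1 in females depended on single lungs and on the tool. It was -0.13 without room air female 6, -0.07 without hyperoxia-exposed female 2 and -0.01 with DESeq2.

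Estimated factors of unwanted variation (RUVr), a step of the study's own normalization, left the fold changes nearly as they were and reduced their standard errors. The factors were estimated from the residuals of the fit of the 4 groups itself, so both outcomes follow largely from the method. The p-values with RUVr factors, here and below, may therefore be too small. With 3 factors, the SE of the 10 genes in females was 0.06 to 0.21, against 0.16 to 0.27 without. 6 of the 10 genes then passed an adjusted p under 0.05 in females, all lower after hyperoxia: Dll4 (log2 fold change -0.22, adjusted p = 0.042), Jag1 (-0.29), Notch1 (-0.43), Notch4 (-0.39), Hes1 (-0.35) and Nrarp (-0.59). With 1 and 2 factors 5 of 10 passed, and Dll4 did not (edgeR adjusted p = 0.082 and 0.058), against 60.5% and 62.7% of the well-counted genes. With 3 factors 65.2% of the well-counted genes and 18.5% of all tested genes passed, so that the 6 of 10 lay near the share of well-counted genes. Only Nrarp also passed the fold threshold (adjusted p = 0.039), as did 4.48% of all tested genes. Over all lungs 3 of 10 passed the adjusted p with 3 factors (Hes1, Notch1 and Notch4, all lower), as did 30.7% of the well-counted genes. In males 0 of 10 passed with 1, 2 or 3 factors, against 0.643%, 2.17% and 3.72% of the well-counted genes.

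A difference in response between the sexes was not detected for any of the 10 genes by the test of the interaction in the fit of the 4 groups without further terms. Dll4 had an interaction term of -0.33 (female minus male log2 fold change, SE 0.31, edgeR adjusted p = 0.661), and 0 of 10 genes were called, as was 0% of all tested genes by edgeR and 0% by DESeq2. At an unadjusted p under 0.05, 0 of 10 passed, against 8.46% of all tested genes. All 10 terms were negative, as were 94.4% of those of the well-counted genes. Once the receptor share entered as a covariate, 7 of the 10 were positive, and with background subtracted 2 were. With RUVr factors, Jag1, Notch1 and Notch4 passed an adjusted p under 0.05 (edgeR), with Dll1 added at 2 and 3 factors, all with negative terms. The 3, 4 and 4 of 10 with 1, 2 and 3 factors stood against 45%, 47.4% and 51.5% of the well-counted genes. Averaged over exposures, all 10 genes were higher in females than in males, by 0.01 to 0.32 on the log2 scale, while 16.2% of the well-counted genes were lower. Of these 10 differences, 5 were below 0 with the receptor share as covariate, 2 with background subtracted and 3 without hyperoxia-exposed male 2. Dll4 was higher by 0.28 (SE 0.15, adjusted p = 0.828), with 63.4 ± 12.1 CPM in 6 females and 51.9 ± 12.9 CPM in 6 males. 0 of 10 genes were called between the sexes, against 1.22% of all tested genes by edgeR and 1.73% by DESeq2. At an unadjusted p under 0.05, 1 of 10 (Dll1) was higher in females, against 4.05%. For Dll1 the edgeR p was 0.041, and 0.683 once adjusted. With 1, 2 or 3 RUVr factors the Dll4 difference between the sexes was 0.30 to 0.31, with edgeR adjusted p-values of 7.3e-04 to 7.8e-05, and stayed under the fold threshold. Dll1, Jag1 and Notch1 passed the adjusted p as well, so that 4 of 10 passed with 1, 2 and 3 factors, against 10.8%, 11.9% and 18.4% of the well-counted genes.

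Few genes of the remaining pathway passed even an unadjusted p. Of 48 further Notch genes (receptors, ligands, glycosyltransferases, proteases, ubiquitin ligases, nuclear cofactors and targets), all were tested and 0 were called over all lungs, in females or in males. The median log2 fold change was -0.10 over all lungs, -0.21 in females and 0.10 in males. At an unadjusted p under 0.05, 1 was higher over all lungs, against 2.67% of all tested genes, and 1 was lower. In females 7 of 48 were lower, against 5.28% of all tested and 24.3% of the well-counted genes, and in males 0 passed, against 2.7%. DESeq2 called 0 over all lungs, 1 in females and 0 in males, against 0.0873%, 0.194% and 0% of all tested genes. Among the other receptors, Notch2 had a log2 fold change of -0.19 (SE 0.18) and Notch3, the receptor of smooth muscle and pericytes, of 0.00 (SE 0.18). Among the other effectors it was 0.03 (SE 0.15) for Heyl, -0.10 (SE 0.12) for Hey2 and 0.17 (SE 0.22) for Hes5, of whose reads 64.7% were background. The ligand Dll3 had 0.11 (SE 0.11). The fringe genes, which add sugars that tune the choice of ligand, had -0.09 (Lfng), -0.13 (Mfng) and 0.00 (Rfng), with SE of 0.11 to 0.15.

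Dlk1, a paternally expressed gene that encodes a non-canonical ligand, was the only one of the 48 whose groups did not overlap over all lungs. It stood at 21.0 to 25.3 CPM after hyperoxia (n = 6) and at 18.01 to 20.8 CPM in room air (n = 6), in both sexes. The log2 fold change was 0.26 (SE 0.10, unadjusted p = 0.012, edgeR adjusted p = 0.927), and background made up 31.1% of its reads. Of all tested genes, 0.096% stood above without overlap in this way. The next in order of p among those higher were Dlk2 (0.22, SE 0.13) and Dner (0.19, SE 0.15), with 27.5% and 52.4% background.

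Dtx3l, an E3 ubiquitin ligase of the Deltex family that is also induced by interferon, differed most among those lower. It stood at 53.9, 56.7 and 95.4 CPM in room air females and at 29.8, 37.4 and 41.4 CPM in hyperoxia-exposed females. The log2 fold change in females was -0.92 (SE 0.22, edgeR adjusted p = 0.199), and in males it was -0.15 (SE 0.22). It was called in females by DESeq2 (-1.0, adjusted p = 0.032) and by edgeR on the 6 female lungs alone (-0.90, adjusted p = 0.020, where 0.185% of genes were called). Without hyperoxia-exposed male 2, edgeR called it in females as well (-0.92, adjusted p = 0.033), where 43 of 46757 tested genes were called. Hes6 (-0.18, SE 0.11) and the corepressor Ctbp1 (-0.25, SE 0.15) followed over all lungs.

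Dll4, Notch1, Notch4 and Hey1 are known from endothelium, and in whole lung fewer endothelial cells and less RNA per cell cannot be told apart. Of 31 endothelial markers (18 general, 7 arterial, 6 capillary), edgeR and DESeq2 each called 0 over all lungs. At an unadjusted p under 0.05, 2 of 31 were lower over all lungs, against 2.52% of all tested genes, and 3 of 31 in females, against 5.28% of all tested and 24.3% of the well-counted genes. In females 29 of the 31 had a negative log2 fold change, against 95.4% of the well-counted genes, and the median was -0.35 against -0.31. In females 5 of 31 stood lower without overlap, against 22.1% of the well-counted genes. Those lower over all lungs were Apln, a ligand of growing capillaries (log2 fold change -0.57, SE 0.14, edgeR adjusted p = 0.335), and Cldn5, a tight junction protein (-0.36, SE 0.16). Without hyperoxia-exposed male 1, Apln was called over all lungs (-0.69, edgeR adjusted p = 0.025), where 37 of 46927 tested genes were called. With 1, 2 or 3 RUVr factors, Apln and Cldn5 were also called in females, where 4.14%, 4.24% and 4.48% of all tested genes were. The general markers Pecam1 (-0.20, SE 0.20), Cdh5 (-0.24, SE 0.22), Kdr (-0.37, SE 0.20) and Tek (0.03, SE 0.19) did not pass. Gja5 (-0.01, SE 0.14) and Efnb2 (-0.15, SE 0.18) of arteries, and Gpihbp1 (-0.08, SE 0.15) and Car4 (-0.04, SE 0.16) of capillaries, did not pass either.

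Markers of other cell types were compared between the female groups as well, with 0 called by edgeR. The sums overlapped for airway epithelial, leukocyte and mural markers, and did not for thymic T cell markers. The 6 airway epithelial markers summed to 4478 to 6536 CPM in hyperoxia-exposed females and to 6343 to 12458 CPM in room air females, with a median log2 fold change of -0.57 and 2 of 6 lower at an unadjusted p under 0.05. The 6 leukocyte markers summed to 1019 to 1260 CPM and to 1188 to 2114 CPM in these groups, with a median of -0.44 and 3 of 6 lower. The 7 mural markers summed to 366 to 478 CPM and to 397 to 513 CPM, with a median of -0.18 and 2 of 7 lower. These counts stand against 5.28% of all tested and 24.3% of the well-counted genes, whose median was -0.31. The 7 thymic T cell markers summed to 67.6 to 93.6 CPM and to 59.7 to 65.4 CPM, with a median of 0.35 and 2 of 7 higher, against 7.32% of all tested genes. The median log2 fold change of all tested genes in females was 0.11. The part of these cell types in the values of the Notch genes was not tested.

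Relative to the geometric mean of the 18 general endothelial markers of the same lung, Dll4 varied less than its CPM did. The ratio was 0.376, 0.321 and 0.329 in room air females and 0.351, 0.407 and 0.396 in hyperoxia-exposed females. In males it was 0.314, 0.332 and 0.319 in room air and 0.327, 0.360 and 0.291 after hyperoxia. The difference between exposures was 0.09 on the log2 scale (exact permutation test within sex, two-sided, p = 0.215, n = 6 each, smallest p possible 0.005), with 0.17 in females and 0.01 in males. The SD of log2 Dll4 over the 12 lungs was 0.34 as CPM and 0.14 as this ratio. Notch1 and Notch4 were closer still to the markers, with an SD of the log2 ratio of 0.08 each.

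Across the 12 lungs, log2 Dll4 and the mean log2 level of the 18 markers were correlated (Pearson r = 0.912, permutation p = 4e-05, adjusted p = 0.0002 over 10 relations, Spearman rho = 0.853, permutation p = 0.00079, adjusted p = 0.00395). Without the 2 lungs farthest from the median, r was 0.830, and it was 0.947 after subtraction of the group means. Of the 9 other Notch genes, Notch1 followed Dll4 most closely (r = 0.930, permutation p = 1e-05, the smallest that 100000 permutations can give, adjusted p = 0.0001, rho = 0.881). Dll1 was the least close (r = 0.694, adjusted permutation p = 0.012, rho = 0.517, adjusted p = 0.090), and without the 2 farthest lungs its r was 0.422. For Nrarp r was 0.708, and 0.457 without the 2 farthest lungs, so that both relations rest largely on those lungs.

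The same lungs were also ordered by the receptor share. Log2 Dll4 fell along the log2 share with r = -0.870 (permutation p = 0.00018, rho = -0.825, r = -0.901 without the 2 farthest lungs, n = 12), and with r = -0.693 after background was subtracted. This relation was added after the data were seen and is not among the 10 relations adjusted together. The endothelial mean had r = -0.934 with the share. These measures are all shares of the same library totals. The correlation of Dll4 with the endothelial mean was 0.807 after background was subtracted. The part of the share in that correlation was not tested further.

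**Figure D3:**
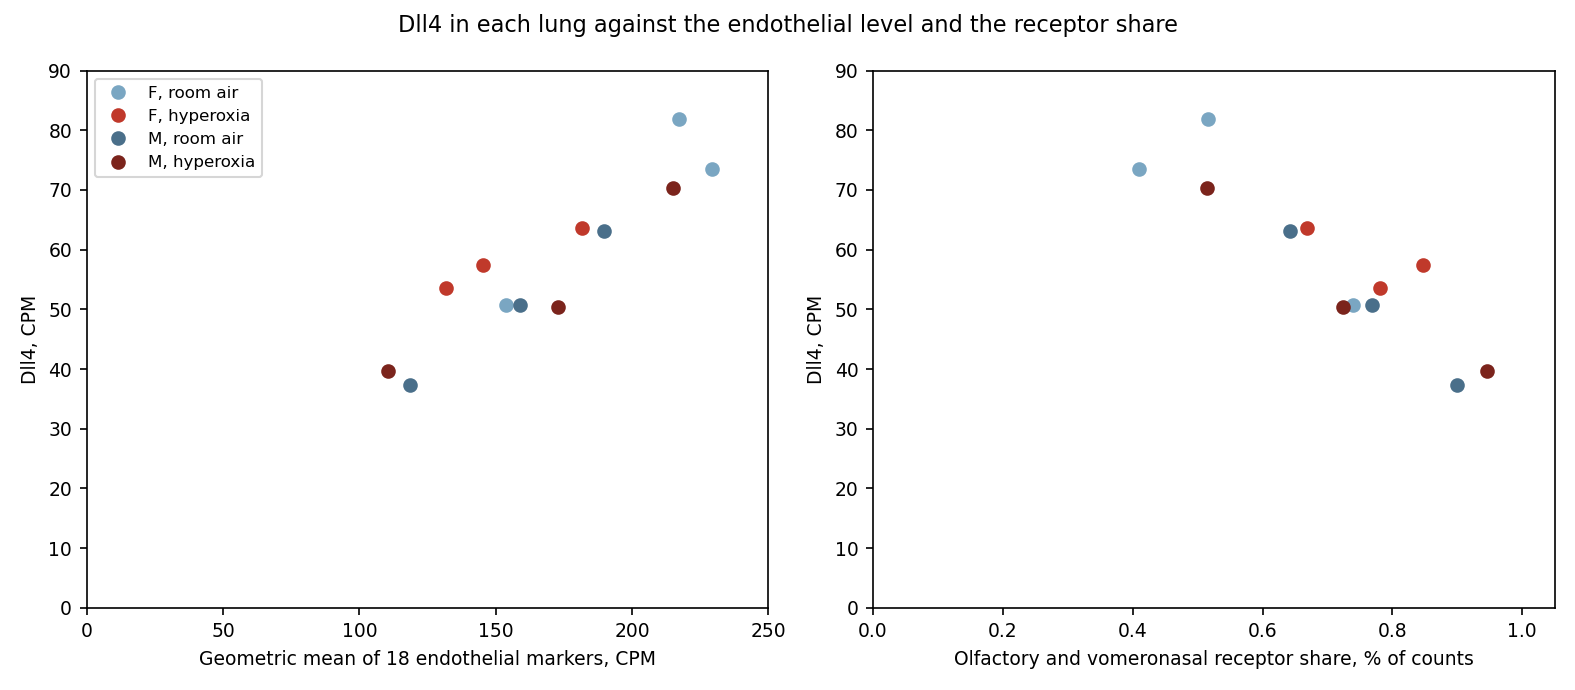
Dll4 in CPM (vertical axes) in each of the 12 lungs against the geometric mean of 18 endothelial markers in CPM (left) and against the share of counts on olfactory and vomeronasal receptor genes in percent (right), coloured by group. Dll4 is higher where the endothelial level is higher (r = 0.912 on log2 values) and lower where the receptor share is higher (r = -0.870).

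Many genes were as close to Dll4 as its pathway. By Pearson r of log2 CPM over the 12 lungs, the 5 closest of 7150 well-counted genes included Arl15 (0.975), Rasgrf2 (0.974), Cxcl14 (0.967) and Dusp7 (0.965). Notch1 ranked 62 and Notch4 ranked 505 in this order. Hey1 ranked 4655, below the middle of the order.

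Over all lungs, the ratio to the endothelial level differed most between exposures for Hey1, followed by Nrarp. Its log2 ratio to the 18 markers was -1.90, -2.02 and -2.26 in room air females and -1.51, -1.43 and -1.70 in hyperoxia-exposed females, without overlap. In males it was -1.61, -1.75 and -1.81 in room air and -1.76, -1.45 and -1.60 after hyperoxia, with overlap. The difference between exposures was 0.52 in females and 0.12 in males, and 0.53 and 0.14 with background subtracted. The difference over all lungs was 0.32 for Hey1, -0.26 for Nrarp, 0.21 for Rbpj, 0.14 for Dll1 and 0.01 for Notch1. For Nrarp it was -0.21 in females, where the groups did not overlap, and -0.31 in males, the largest in that sex. Relative to Dll4 itself, Hey1 was lower in room air females (log2 ratio -0.49, -0.38 and -0.66) than in hyperoxia-exposed females (0.00, -0.13 and -0.36), though the nearest lungs stood close together, and the male groups overlapped. These ratios were examined after the values of Hey1 were seen and are given as a description, without a test. How many of the well-counted genes have a ratio to the markers that separates the female groups was not counted. The 18 markers had a median log2 fold change of -0.37 in females, so a gene of unchanged CPM rises relative to them.

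**Figure D4:**
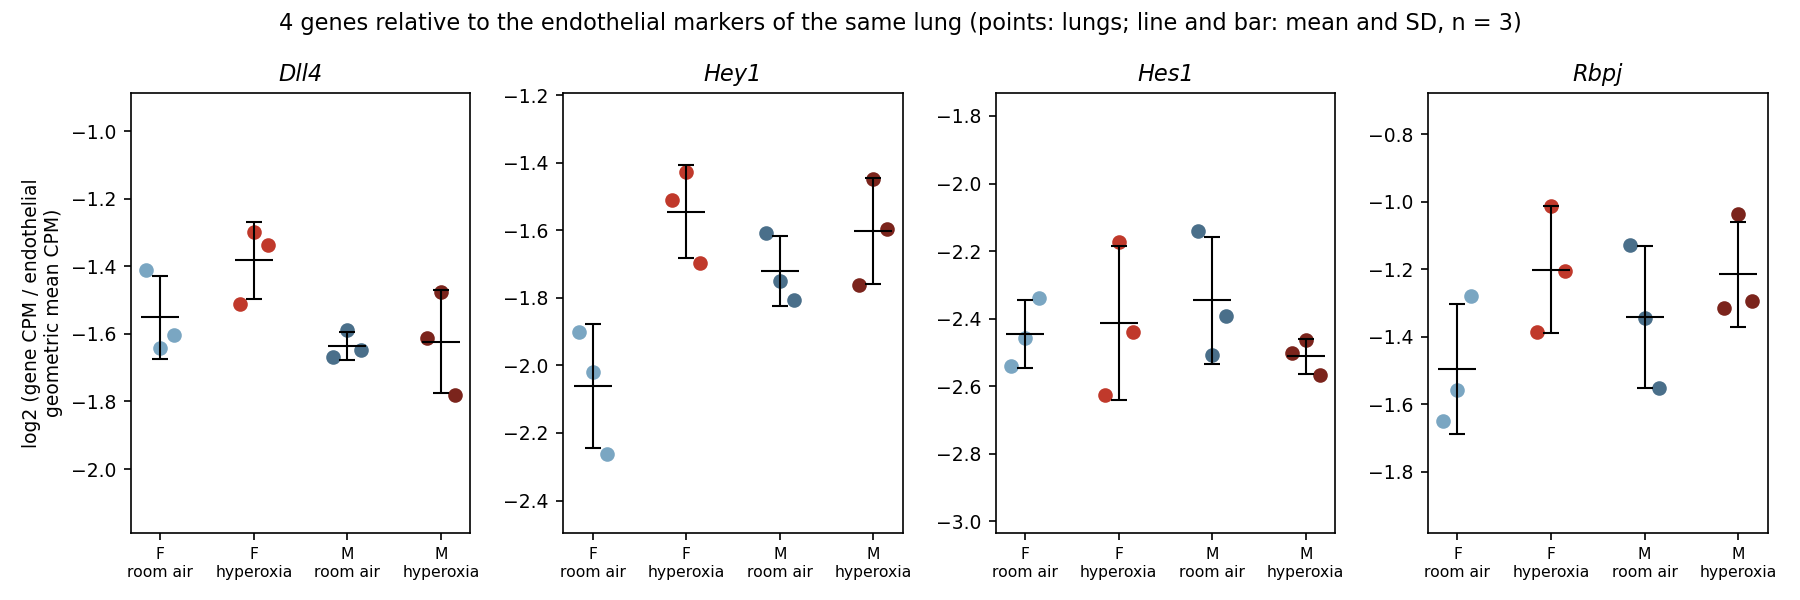
Log2 ratio of Dll4, Hey1, Hes1 and Rbpj to the geometric mean of 18 endothelial markers of the same lung (vertical axes, each spanning the same log2 range), for the 3 lungs of each group (points) with mean and SD. Hey1 in females is the only panel and sex in which the exposures do not overlap, with hyperoxia-exposed lungs at -1.70 to -1.43 and room air lungs at -2.26 to -1.90.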

How the data were processed

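The deposited values are raw counts per gene, which the authors made with featureCounts after trimming (Trim Galore) and alignment to mm10 (STAR). The labels name a NEBNext Ultra II Directional kit and the methods a QIAseq Stranded kit. Columns left without a sample numbered 0. The study used these lungs together with earlier WT lungs and names a ComBat-seq step, which was not repeated. The number of RUVr factors it used is not given.

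Genes kept by filterByExpr (45828) were fitted with edgeR 4.0.16 (R 4.3.3, limma 3.58.1), a robust quasi-likelihood model of the 4 groups with upper-quartile normalization (biological coefficient of variation 0.177). Calls needed a Benjamini-Hochberg adjusted p under 0.05 over all tested genes and a fold change over 1.5. All lungs means the average of both sexes. CPM use normalized library sizes, and log2 CPM a prior count of 2. Background was estimated from 1490 olfactory and vomeronasal receptor genes and GENCODE M21 exon lengths, known for 55227 genes. Correlations used 100000 permutations (scipy 1.17.1, Python 3.11.15).

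Named genes were the 10 genes, a fixed set of other Notch genes and endothelial markers, any Notch gene called, the 3 higher and 3 lower Notch genes of smallest p, and the 5 closest to Dll4, of which 1 is not reported here. Apln and Cldn5 were added after their values were seen. The members and lists were chosen with earlier results of these data known.

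Alternatives were TMM, DESeq2 1.42.0, RUVr with 1, 2 or 3 factors, other filters, background subtraction, the log2 receptor share as covariate, an additive model, 1 sex alone, animal number as block and each lung left out. In simulated data of 45828 genes, the comparison over all lungs recovered 93 of 100 genes changed 2-fold and 100 of 100 changed 4-fold, with 8 false calls.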

Additional observations from a re-analysis of the deposited data

How the results depend on the processing

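0 of the 10 genes were called over all lungs or between the sexes under any alternative. The same held in males, leaving aside the block by animal number, described below. In females 1 was called with 1, 2 or 3 RUVr factors (Nrarp) and 1 with the receptor share as covariate (Hey1). For the 48 other Notch genes, 1 (Dtx3l) was called in females with DESeq2, with 1 sex alone, and in leave-one-out fits (0 to 1). For the endothelial markers, leave-one-out fits called 0 to 1 over all lungs (Apln). Log2 fold changes turned in sign as follows, and the cause was not tested. With the receptor share as covariate, Dll4 was 0.099 over all lungs, 0.226 in females, -0.028 in males and 0.254 in the interaction, where 7 of the 10 terms were then positive, and 5 of 10 differences between the sexes were below 0 (2 with background subtracted). Under the same covariate Dll1 was 0.046 and Jag2 0.022 over all lungs, with Jag2 at 0.085 in females and -0.041 in males, Notch1 0.017 over all lungs, and in females Notch4 was 0.00741, Hes1 0.017 and Rbpj 0.211. With background subtracted, Dll4 was 0.0021 and Dll1 0.061 over all lungs, Jag2 -0.022 in males and Rbpj 0.00718 in females. Notch4 in males was 0.0051 with TMM, 0.00943 without a filter and 0.022 with DESeq2, and Hey1 in females was -0.00661 with DESeq2.

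Without 1 lung, up to 3 of 10 sex differences and up to 1 of 10 interaction terms turned. In the comparisons of exposures, leave-one-out ranges that crossed 0 were -0.20 to 0.027 for Dll4, -0.076 to 0.050 for Dll1 and -0.029 to 0.15 for Rbpj over all lungs, and -0.13 to 0.24 for Hey1 in females. In males they were -0.15 to 0.29 for Dll4, -0.057 to 0.13 for Jag2, -0.051 to 0.36 for Notch1, -0.19 to 0.20 for Notch4, -0.28 to 0.16 for Hes1 and -0.42 to 0.025 for Nrarp.

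The animal numbers did not pair the lungs: deviations of lungs with the same number correlated at -0.30, 0.06 and -0.17, and none correlated best with its own number. With animal number as a replicate block, 0 of the 10 genes were called over all lungs or in females. Dll4 was then at 0.059 and Dll1 at 0.075 over all lungs, and Hey1 at -0.099 in females. Only number 1 is in both male groups, so the male values compare 1 lung with 1 other. In this pair, room air male 1 is the lung with the skeletal muscle transcripts. The male values were 0.69 for Notch4, 0.50 for Hes1, 0.00499 for Nrarp and 1.2 for the endothelial marker Sox18. The interaction, with Dll4 at -1.27, rests on the same male pair, so calls are given neither for it nor for males. No paired analysis was possible between the sexes because their groups share fewer than 2 numbers, as do the male groups.

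Counts limit Nrarp most (28 to 102 per lung). With 3 lungs per group, the 95% intervals for Dll4 in each sex span about 0.9 on the log2 scale, so that differences of the size seen here were not detectable in the fit without RUVr factors.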
